A study of Homo sapiens with 18 samples.

Results

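The MYC network and polyamine enzymes are 10 genes taken by symbol, each read from the probe set with the highest mean among those assigned to that gene alone. All 10 of them were measured, each by exactly 1 such probe set, among 18417 measured genes. They are MYC, its partner MAX, the antagonists MXD1, MXD3, MXD4 and MXI1, the related factors MNT and MLX, and the enzymes SRM and ODC1. The samples were Raji cells, an established B-cell line from a Burkitt lymphoma that carries Epstein-Barr virus. The cells were kept in RPMI medium with 10% serum and given sodium n-butyrate at 3 mM, a phorbol ester at 0.05 µM and maslinic acid at 19 µM, and were collected at 0, 4, 8, 12, 24 or 48 h. Each time has 3 Affymetrix arrays that the labels call biological replicates. All 18 arrays, those of 0 h included, carry the same treatment label and there is no untreated group, so a change over time in treated cells and a change over time in culture cannot be told apart. Nothing in the labels says that the replicates were separate cultures, so the p-values measure only the spread between these arrays.

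MYC is a transcription factor that binds DNA as a pair with MAX, at a short sequence called the E-box, and drives genes of growth, nucleotide synthesis and protein synthesis. MXD1, MXI1, MXD3, MXD4 and MNT compete for MAX at the same sites and recruit the SIN3 histone deacetylase complex, which silences the gene. MLX pairs with the glucose-responsive factors MLXIP and MLXIPL and with some of the antagonists. Burkitt lymphoma is defined by a chromosome translocation that places MYC under immunoglobulin control. Butyrate inhibits histone deacetylases, and phorbol ester activates protein kinase C. Polyamines are small charged molecules that dividing cells need: ODC1 makes putrescine from ornithine, and SRM joins an aminopropyl group to putrescine to give spermidine. ODC1 is a textbook MYC target.

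The E-box CACGTG, which reads the same on both strands, was searched in RefSeq promoter windows of GRCh38.p14 that run from 250 bases before to 50 bases after a gene's start. Windows of 9 of the 10 genes were searched, 13 windows in all. MYC was left out of the search, so nothing is said of its own windows. The motif lay in 5 of the 13 windows (38.5%) and in 5 of the 9 genes (55.6%), and in 7.26% of all 35116 windows and 8.77% of 27305 genes. It was found at -199 in SRM, at -29 and +6 in 1 of the windows of ODC1, at -193 in MNT, at -238 in MXD4 and at -50 in MLX. These letters were not in the windows of MXD1, MXD3, MXI1 or MAX. The stretches below are shown because SRM and ODC1, the enzymes of the set, were the pair most alike over the arrays, and MXD1 is the gene with the largest rise. Capitals mark CACGTG, and each stretch is written 5′ to 3′ along the gene's strand. A match is a description of the letters and not a measured binding site.
SRM, chr1:11060172-11060257, minus strand, from -239 to -154: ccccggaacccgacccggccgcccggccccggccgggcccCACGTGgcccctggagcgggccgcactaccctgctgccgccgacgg
ODC1, chr2:10448002-10448081, minus strand, from -69 to +11: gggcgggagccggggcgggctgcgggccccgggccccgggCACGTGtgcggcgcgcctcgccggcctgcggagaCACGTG
MXD1, chr2:69914909-69915108, plus strand, from -200 to -1: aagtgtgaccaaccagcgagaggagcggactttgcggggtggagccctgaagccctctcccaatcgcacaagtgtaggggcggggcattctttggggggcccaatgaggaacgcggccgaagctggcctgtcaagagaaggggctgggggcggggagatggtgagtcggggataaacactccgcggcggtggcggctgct

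The values are log2 intensities, so a difference of 1 is a 2-fold change. The array medians lay between 4.03 and 4.25. On 17 arrays the middle 50% of values spanned 2.74 to 3.16 log2 units. Replicate 2 of 8 h, with 2.37, stands apart, and calls at 8 h are given with and without it where they differed. The label was checked against B-cell markers. Over the 18 arrays MS4A1 lay at 8.33 to 10.53, CD22 at 6.86 to 8.70, PAX5 at 5.20 to 7.51, CD79A at 4.86 to 8.10, CR2 at 4.75 to 9.07 and CD79B at 3.95 to 6.41, which at its lowest is below the array medians. Of these 6, 3 passed limma's F test over time, beside 16.4% of all genes. Those called lower than 0 h numbered 2, 4, 1 and 2 at 8, 12, 24 and 48 h. Over all genes 6.68%, 8.05%, 12.5% and 15.0% were called there in either direction. The 2 at 8 h became 1 without replicate 2 of 8 h or replicate 2 of 0 h, and with only the 6 arrays compared. The 4 at 12 h became 2 without replicate 2 of 0 h or replicate 1 or 2 of 12 h. Over the alternatives the count at 24 h ran from 1 to 5. The median difference was -1.28 at 12 h and -0.75 at 48 h, and that of all genes was 0.05 both times. Of the markers of other cell types, none of the 6 monocyte, 5 epithelial, 5 fibroblast and 2 erythroid genes passed limma's F test over time (1 epithelial gene had an unadjusted p under 0.05), and 2 of the 6 T-cell genes did (CD3D and TRAT1). TRAT1 lay at 3.27 to 6.13 over the arrays (mean 5.76 at 0 h) and CD3D at 3.02 to 5.16 (mean 3.27 at 0 h). A test of change does not show that a marker is absent. The part of these other markers in the results was not tested. In bulk RNA, fewer cells of a type and less RNA per cell cannot be told apart.

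Of the 10 genes, 4 changed over the 6 times by limma's moderated F test at an adjusted p under 0.05, beside 16.4% of all genes. They were MXD1 (adjusted p = 5.88e-05), MYC (0.000102), SRM (0.00561) and MXI1 (0.0329). MNT (adjusted p = 0.133), ODC1 (0.193), MXD4 (0.377), MAX (0.474), MXD3 (0.501) and MLX (0.862) did not pass. Against 0 h, MYC was lower and MXD1 higher at 4 h and at 8 h, and these were the 2 calls among the 10 genes at each time, beside 1.75% and 6.68% of all genes. At 12 h and 24 h MYC and SRM were lower and MXD1 higher, 3 calls beside 8.05% and 12.5% of all genes. At 48 h MXD1 and MXI1 were higher and SRM lower, 3 calls beside 15.0%. The arrays of a later time lay wholly above or wholly below those of 0 h for 5, 3, 5, 6 and 6 of the 10 genes, in order of time, and for 18.4%, 19.2%, 27.9%, 27.4% and 28.4% of all genes. From 8 h on, none of the 10 passed limma's test of a time against the one before it. At an unadjusted p under 0.05 there were 2 at 8 h against 4 h, 1 at 12 h against 8 h, 1 at 24 h against 12 h and 0 at 48 h against 24 h. Over all genes the adjusted test called 0.223%, 0%, 1.37% and 0.402% in these comparisons. With arrays weighted by their quality, 2 of the 10 passed at 8 h against 4 h, and over all genes 1039 in place of 41. Replicate 1 of 8 h then had a weight of 5.18, and replicates 2 and 3 had 0.246 and 0.827. The median difference from 0 h over the 10 genes was between -0.16 and 0.16 at the 5 later times, and over all genes between -0.02 and 0.05.

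**Figure D1:**
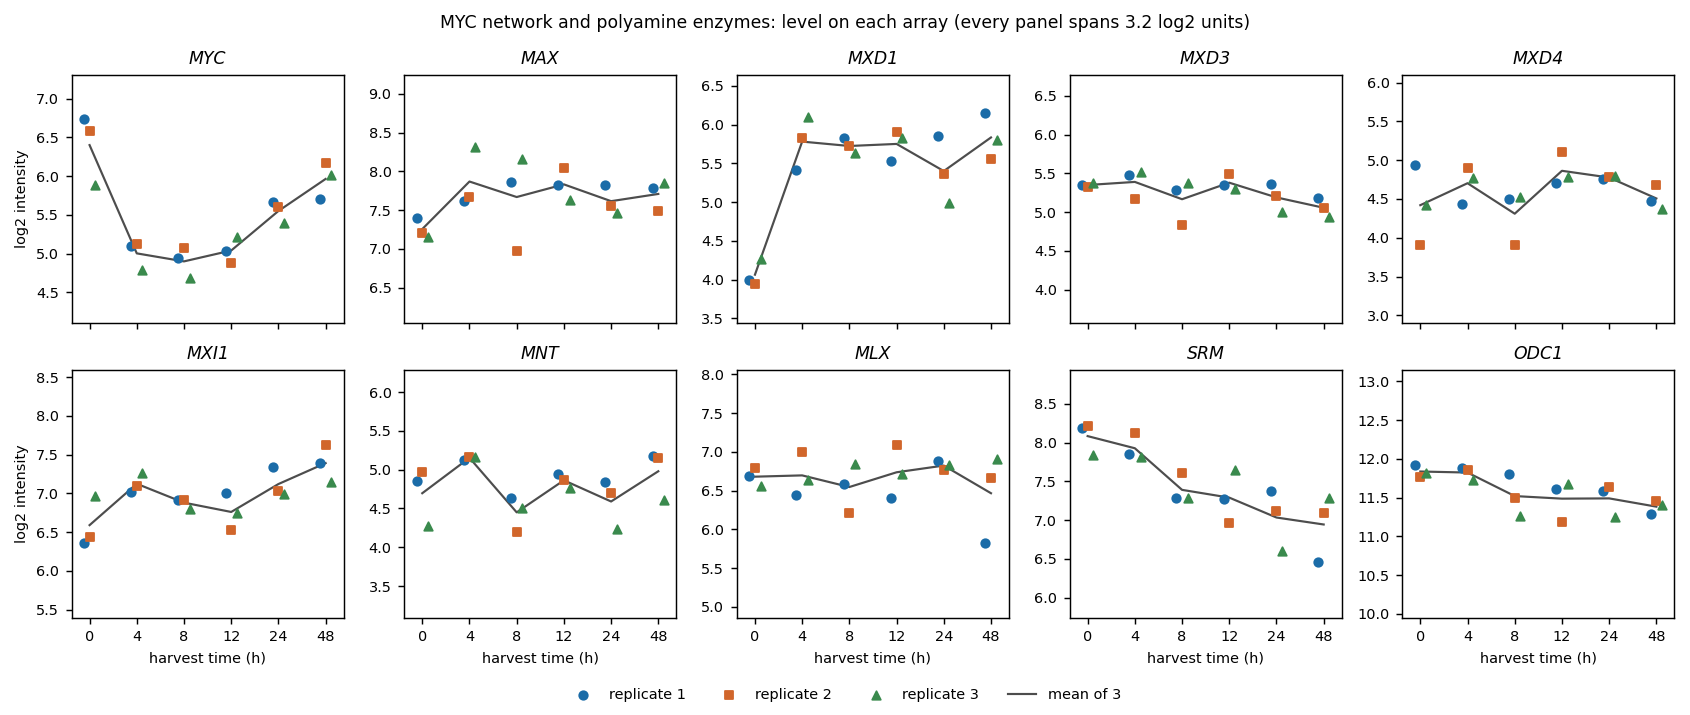
Level of each of the 10 genes on each of the 18 arrays (vertical axis, log2 intensity, every panel spanning 3.2 units) by harvest time in hours (evenly spaced, not to scale), with 1 marker shape per replicate and a line through the means of 3 arrays. MYC dips at 4 to 12 h and climbs back, MXD1 steps up at 4 h and stays up, and SRM slopes downward.

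MYC messenger RNA fell within 4 h, stayed low to 12 h and rose again by 48 h. On the 0 h arrays MYC stood at 6.74, 6.58 and 5.88. The 4 h arrays held 5.10, 5.12 and 4.79 and the 8 h arrays 4.95, 5.07 and 4.68. The 12 h arrays held 5.03, 4.88 and 5.21. All 9 arrays of 4 to 12 h lie below the lowest 0 h array, which is replicate 3. The difference from 0 h was -1.40 at 4 h (SE 0.20, n = 3 per time, limma adjusted p = 0.0016), which is 2.63-fold lower. It was -1.50 at 8 h (2.83-fold lower, limma adjusted p = 0.000191) and -1.36 at 12 h (2.57-fold lower, limma adjusted p = 0.000324).

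The later arrays of MYC show the return. At 24 h MYC stood at 5.66, 5.60 and 5.39, above every array of 4 to 12 h and below every array of 0 h. The difference from 0 h was -0.85 (SE 0.20, 1.80-fold lower, limma adjusted p = 0.00844). Leaving out replicate 1 of 0 h gave -0.68 with an adjusted p of 0.0551. At 48 h MYC stood at 5.70, 6.17 and 6.02, above every array of 24 h and overlapping 0 h. There the difference from 0 h was -0.44 (95% interval -0.86 to -0.01, limma adjusted p = 0.174). Leaving out replicate 3 of 0 h gave -0.70 with an adjusted p of 0.0172, so whether MYC was still below its starting level at 48 h rests on that array. From 4 h to 48 h MYC rose by 0.96 (SE 0.20, 1.94-fold, limma adjusted p = 0.00439), a comparison in which 2 of the 10 genes passed beside 9.79% of all genes. From 4 h to 24 h the difference was 0.55 (95% interval 0.12 to 0.97, limma adjusted p = 0.122), and 1 of the 10 genes, SRM, passed beside 7.98% of all genes. In order of mean level the times ran 0, 48, 24, 12, 4 and 8 h. The neighbours 48 h and 24 h (adjusted p = 0.546) and 24 h and 12 h (adjusted p = 0.332) did not pass the limma test against each other.

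MAX, the shared partner of MYC and its antagonists, stood above the 0 h arrays on 14 of 15 later arrays, but no comparison passed the test. The 0 h arrays held 7.40, 7.21 and 7.16 and the 4 h arrays 7.62, 7.67 and 8.32. The difference at 4 h was 0.61 (95% interval 0.09 to 1.14, limma adjusted p = 0.289). The 1 later array below 0 h was replicate 2 of 8 h, at 6.98, the array with the narrow spread of values. Without it the 8 h difference was 0.76 in place of 0.41, and its adjusted p 0.0461 in place of 0.442. At 12, 24 and 48 h the differences were 0.57, 0.36 and 0.45 (limma adjusted p = 0.188, 0.46 and 0.269).

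Among the 4 MXD antagonists MXD1 rose within 4 h and stayed up, MXI1 was higher at 48 h, and MXD3 and MXD4 passed no comparison. MXD1, the founding antagonist and a factor known to rise when blood cells differentiate, stood at 3.99, 3.94 and 4.26 on the 0 h arrays, between the lower quartile (3.31 to 3.37) and the median (4.34 to 4.44) of all genes there. The 4 h arrays held 5.41, 5.83 and 6.10, the 8 h arrays 5.82, 5.72 and 5.63, and the 12 h arrays 5.53, 5.90 and 5.82. Those of 24 h held 5.85, 5.36 and 4.99 and those of 48 h 6.15, 5.55 and 5.80. All 15 later arrays lie above all 3 of 0 h. The 0 h arrays also lie within the range of markers of other cell types such as CSF1R (3.47 to 4.51), and near background an array compresses a change, so the folds of MXD1 and the changes of MYC less MXD1 may be too small in size. MXD1 is the only gene of the 10 whose 15 later arrays all lie on one side of 0 h, which 4.32% of all genes do. The difference from 0 h was 1.72 at 4 h (SE 0.22, 3.29-fold higher, limma adjusted p = 0.000632). At 8, 12 and 24 h it was 1.66, 1.69 and 1.34, and by 48 h it was 1.77 (3.41-fold higher, limma adjusted p = 1.72e-05).

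MXI1, a second antagonist, stood at 6.36, 6.44 and 6.97 at 0 h, with replicate 3 the highest. At 48 h it stood at 7.39, 7.63 and 7.15, above all 3. That difference was 0.80 (SE 0.18, 1.74-fold higher, limma adjusted p = 0.0049). At 4 h (7.02, 7.09 and 7.26) and 24 h (7.34, 7.03 and 6.99) the arrays also lay above those of 0 h, and the difference was 0.53 both times (limma adjusted p = 0.182 and 0.0675). Without replicate 3 of 0 h the 24 h difference was 0.72 with an adjusted p of 0.0145. At 8 h and 12 h the differences were 0.29 and 0.17 and the arrays overlapped. The F test of MXI1 was lost on leaving out any one of 6 arrays, namely replicates 1 and 2 of 0 h, 2 of 4 h, 3 of 12 h and 1 and 2 of 48 h (adjusted p = 0.0509 to 0.0968 over these and 2 other settings).

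MXD3, an antagonist known from the S phase of dividing cells, stayed between 4.83 and 5.52 on all 18 arrays. Its 48 h arrays (5.18, 5.05 and 4.94) lay below those of 0 h (5.35, 5.32 and 5.38), a difference of -0.29 (95% interval -0.63 to 0.04, limma adjusted p = 0.263). After median centring of the arrays, which moved the median of all genes at 48 h by -0.14, this was -0.43 (limma adjusted p = 0.0493). MXD4 stood at 4.94, 3.90 and 4.42 on the 0 h arrays, a spread that covers 13 of its 15 later arrays. Its differences from 0 h ran from -0.11 at 8 h to 0.45 at 12 h (95% interval at 12 h -0.03 to 0.92, limma adjusted p = 0.277).

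**Figure D2:**
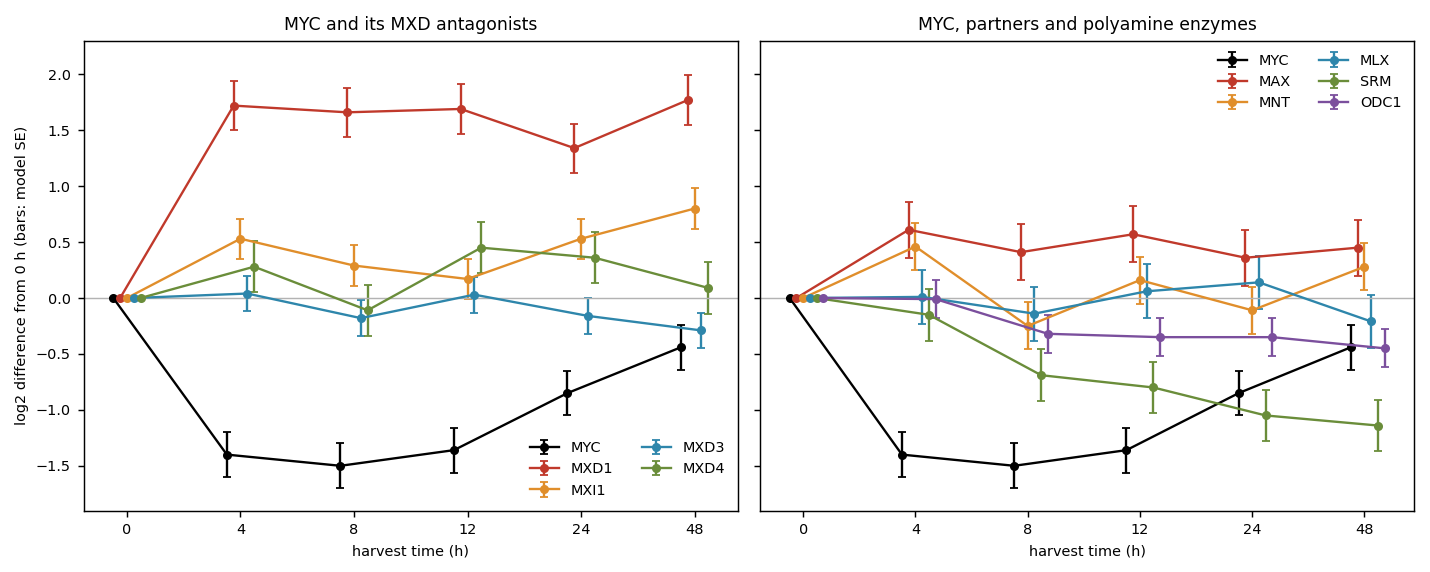
Difference from the 0 h mean (vertical axis, log2 units) at 4 to 48 h for MYC and the 4 MXD antagonists in the left panel and for MYC, MAX, MNT, MLX, SRM and ODC1 in the right, with bars of 1 model SE and n = 3 arrays per time. MYC and MXD1 part at once, by -1.40 and 1.72 at 4 h, while SRM reaches -1.14 at 48 h.

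MYC was set against each antagonist as the change in MYC less the change in the antagonist, which needs no comparison of levels between probe sets. Against MXD1 the change was -3.11, -3.16 and -3.05 at 4, 8 and 12 h, and -2.19 and -2.21 at 24 and 48 h (SE 0.35, n = 3 per time). On the single arrays, relative to the 0 h mean, it was 0.41, 0.30 and -0.71 at 0 h, -2.65, -3.05 and -3.64 at 4 h, and -2.79, -1.72 and -2.12 at 48 h. All 15 later arrays lie below those of 0 h. Against MXI1 the change was -1.93 at 4 h and -1.24 at 48 h (SE 0.31), also below the 0 h arrays at each time. The margin was small at 48 h, where replicate 3 lay at -0.94 and replicate 3 of 0 h at -0.90. Without replicate 3 of 0 h, which was low for MYC and high for MXI1, these values were -2.38 and -1.69.

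Against MXD3 and MXD4, which did not pass the test themselves, the change follows MYC. It was -1.44 and -1.68 at 4 h, and -0.15 (SE 0.29) and -0.53 (SE 0.33) at 48 h, where the arrays overlap those of 0 h. From 4 h to 48 h the balance moved back toward MYC by 1.29 against MXD3, 1.15 against MXD4 and 0.69 against MXI1, with the 48 h arrays above those of 4 h each time. Against MXD1 it moved by 0.91, and the arrays overlapped. MYC and MXD1 had a Pearson r of -0.69 over the 18 arrays, a description in which the arrays of a time share their treatment. It was -0.12 for MXI1, -0.21 for MXD3 and -0.19 for MXD4.

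**Figure D3:**
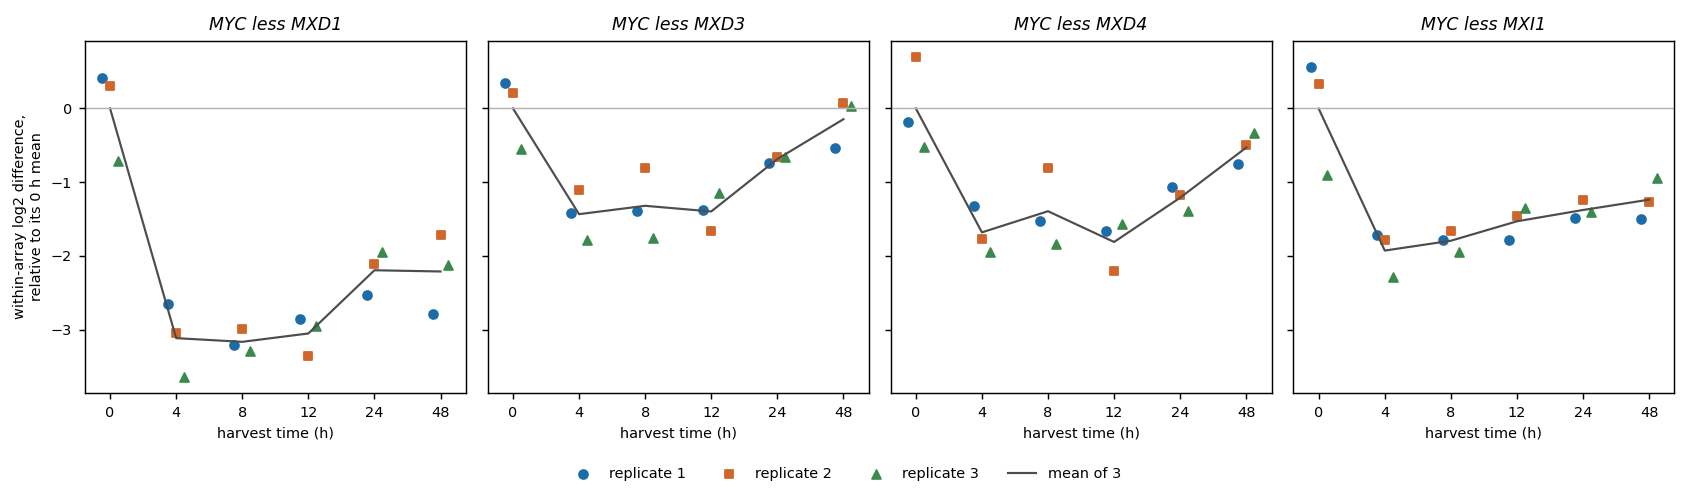
MYC less each antagonist within the same array, set to the mean of the 0 h arrays (vertical axis, log2 units), by harvest time in hours, with 1 point per array and a line through the means. Against MXD1 and MXI1 all later arrays stay below those of 0 h, and against MXD3 and MXD4 the arrays of 48 h overlap those of 0 h.

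MNT, the broadly expressed antagonist of MYC, and MLX passed no comparison in the main model. With arrays weighted by their quality, MNT passed limma's F test (adjusted p = 0.043). It then also passed at 8 h against 4 h (limma adjusted p = 0.0257) and at 24 h against 4 h (limma adjusted p = 0.0401). With these weights the calls over all genes rose too. They went from 3023 to 5422 in the F test, from 41 to 1039 at 8 h against 4 h and from 1469 to 3171 at 24 h against 4 h. On the arrays MNT stood at 4.85, 4.97 and 4.27 at 0 h, at 5.12, 5.17 and 5.17 at 4 h, and at 4.64, 4.20 and 4.51 at 8 h. All 4 h arrays lay above both groups. The difference was 0.46 from 0 h to 4 h (95% interval 0.02 to 0.89, limma adjusted p = 0.35) and -0.70 from 4 h to 8 h (95% interval -1.14 to -0.27, limma adjusted p = 0.238). MLX stood at 6.69, 6.79 and 6.56 at 0 h and at 5.83, 6.66 and 6.91 at 48 h, with differences from 0 h between -0.21 and 0.14 (SE 0.24). The 5 other genes of the network measured were MYCN, MYCL, MGA, MLXIP and MLXIPL. Of these, 0 of 5 passed limma's F test (1 had an unadjusted p under 0.05), beside 16.4% of all genes. A comparison with 0 h was passed by 0 of 5 (2 had an unadjusted p under 0.05 at 4 h). The share of all genes there was 1.75% at 4 h to 15.0% at 48 h, so nothing is read from these counts of 0. MGA, which pairs with MAX, was 0.83 higher at 48 h than at 4 h (limma adjusted p = 0.00947, and 0.0505 without replicate 2 of 4 h). It was the 1 of the 5 called in that comparison, beside 9.79% of all genes.

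MLXIP and MLXIPL drive TXNIP, a brake on glucose uptake, and ARRDC4. TXNIP passed the F test (adjusted p = 0.0257, and 0.0504 to 0.0755 without replicate 2 of 4 h or replicate 1 or 2 of 48 h) and ARRDC4 did not. ARRDC4 lay at 2.37 to 3.00 over the arrays, below the lower quartile of all genes (3.29 to 3.50), so nothing is read from its result. TXNIP stood at 7.97, 8.01 and 7.96 at 0 h and near 7 at 4 h (7.09, 7.10 and 7.05). At 24 h it stood at 9.75, 9.67 and 7.27, and at 48 h at 9.74, 10.32 and 7.99. Replicate 3 was low at both late times, and no comparison of TXNIP with 0 h passed in the main model. With only the 6 arrays compared, TXNIP was called lower than 0 h at 4 h (-0.90). It was 2.27 higher at 48 h than at 4 h (limma adjusted p = 0.0122), beside 9.79% of all genes called in that comparison. That call ended without replicate 1 or 2 of 48 h (limma adjusted p = 0.0544 and 0.0783). Without replicate 3 of 24 h, TXNIP was called higher than 0 h at 24 h and at 48 h, and leaving out replicate 3 of 48 h gave the call at 48 h.

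SRM, spermidine synthase, was 2.20-fold lower at 48 h than at 0 h, and at 4 h, when MYC was already low, it did not differ from 0 h by the test. It stood at 8.19, 8.22 and 7.84 at 0 h and at 7.85, 8.12 and 7.81 at 4 h, where the arrays overlapped and the difference was -0.15 (95% interval -0.64 to 0.34, limma adjusted p = 0.856). The 8 h arrays held 7.28, 7.61 and 7.28 and the 12 h arrays 7.27, 6.96 and 7.64. Those of 24 h held 7.38, 7.12 and 6.60 and those of 48 h 6.46, 7.09 and 7.28. From 8 h on, every array lay below those of 0 h. The difference was -0.69 at 8 h (SE 0.23, limma adjusted p = 0.0939), -1.05 at 24 h (2.07-fold lower, limma adjusted p = 0.0053) and -1.14 at 48 h (limma adjusted p = 0.0023). At 12 h it was -0.80 with an adjusted p of 0.043, a call lost on leaving out any one of 8 arrays (limma adjusted p = 0.0505 to 0.191). These were replicates 1 and 2 of 0 h, 1 of 4 h, 1 of 8 h, 1 and 2 of 12 h, 2 of 24 h and 2 of 48 h. Quantile normalization (adjusted p = 0.0605) and testing all probe sets singly (adjusted p = 0.0811) ended it too.

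While MYC rose between 4 h and 48 h, SRM fell by 0.98 (limma adjusted p = 0.0101). Leaving out replicate 2 of 4 h (adjusted p = 0.0536) or replicate 1 of 48 h (adjusted p = 0.0653) ended that call. SRM fell by 0.90 between 4 h and 24 h (limma adjusted p = 0.0219), and the adjusted p was 0.0566, 0.104, 0.0502 and 0.114 without replicates 1 and 2 of 4 h and 2 and 3 of 24 h. The Pearson r of SRM with MYC over the 18 arrays was 0.24.

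ODC1, ornithine decarboxylase, differed less from 0 h, and no comparison passed. The 0 h arrays held 11.92, 11.77 and 11.82, and the 12 h arrays 11.61, 11.18 and 11.67. Those of 24 h held 11.58, 11.64 and 11.25 and those of 48 h 11.29, 11.45 and 11.41. The arrays of 12, 24 and 48 h all lay below those of 0 h. The difference at 48 h was -0.45 (95% interval -0.80 to -0.11, limma adjusted p = 0.0768). After median centring of the arrays, which moved the median of all genes there by -0.14, it was -0.59 (limma adjusted p = 0.0213). At 4 h, without centring, the difference was -0.01 (95% interval -0.36 to 0.34). SRM and ODC1 had a Pearson r of 0.82 over the 18 arrays, the highest of any pair among the 10 genes. The values lie near the top of the scale, whose highest value was 12.93, where arrays can understate a change.

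Of the 18 other genes of polyamine synthesis, control, breakdown and transport, 4 passed the F test, and 3 of these were higher than 0 h at 24 h. Over all genes the F test passed 16.4% and the 24 h test 12.5%, so these shares are near the background. SAT1, which acetylates spermidine and spermine for breakdown or export, stood at 6.82, 7.86 and 9.0 at 0 h. It stood at 9.73, 9.92 and 9.68 at 24 h and at 10.23, 9.94 and 9.35 at 48 h, above all the 0 h arrays. The difference was 1.89 at 24 h (SE 0.43, limma adjusted p = 0.00611) and 1.95 at 48 h (3.86-fold higher, limma adjusted p = 0.00377). SLC18B1, a vesicular polyamine transporter, stood at 3.40, 3.55 and 4.01 at 0 h, at 6.06, 5.79 and 5.83 at 24 h, and at 4.25, 4.49 and 5.05 at 48 h. Its difference from 0 h was 2.24 at 24 h (4.72-fold higher, limma adjusted p = 3.14e-06) and 0.94 at 48 h (limma adjusted p = 0.00618). Its 0 h arrays lie in the range of markers of other cell types such as PDGFRB (3.59 to 4.16) and CD14 (3.11 to 4.04). Near background an array compresses a change, so these folds may be too small.

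The lysosomal polyamine exporter ATP13A2 was 0.58 higher at 24 h (limma adjusted p = 0.0091, and 0.0596 without replicate 1 of 24 h). At 48 h its difference was 0.24 (limma adjusted p = 0.298). Its 0 h arrays held 3.57, 3.46 and 3.53, also within the range of CD14 (3.11 to 4.04), so these differences may be too small. The related transporter ATP13A3 differed from 0 h by -0.60 at 48 h (limma adjusted p = 0.0346), a call that ended on leaving out any array of 0 h or replicate 1 or 3 of 48 h (adjusted p = 0.0567 to 0.136). The other 14 did not pass the F test, among them AMD1, which supplies the aminopropyl donor, SMS, which makes spermine, the antizymes OAZ1 and OAZ2, which direct ODC1 to breakdown, and the antizyme inhibitor AZIN1. The list's median difference was 0.13 at 24 h and 0.12 at 48 h, and that of all genes -0.01 and 0.05.

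Making spermidine and spermine leaves methylthioadenosine, which methionine salvage turns back into methionine. Of 8 genes of salvage and the methionine cycle, 3 passed the F test, and 6 were lower than 0 h at 48 h and 0 higher. Over all genes 16.4% passed the F test and 15.0% the 48 h test. AHCY, which clears S-adenosylhomocysteine, stood at 7.66, 7.93 and 7.85 at 0 h and at 5.92, 6.34 and 6.66 at 48 h, a difference of -1.51 (SE 0.23, 2.85-fold lower, limma adjusted p = 0.000176). The salvage enzymes ADI1 (-1.33, limma adjusted p = 0.00217) and ENOPH1 (-0.96, limma adjusted p = 0.000355) were lower too. MTAP, which starts the salvage, and APIP and MAT2B complete the 6. They are named for this count, a choice made after seeing their values. The call of MAT2B ended under 8 alternatives, which include leaving out replicate 2 or 3 of 0 h or replicate 1 or 2 of 48 h (adjusted p = 0.0553 to 0.129). At 24 h 4 of the 8 were lower, and 2 without replicate 2 of 0 h, 3 of 0 h or 2 of 24 h. The list's median difference was -0.76 at 48 h and that of all genes 0.05. Of the 3 measured genes of hypusine formation, the step in which spermidine modifies a translation factor, 0 passed limma's F test (0 at an unadjusted p under 0.05), while EIF5A was not analysed here.

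**Figure D4:**
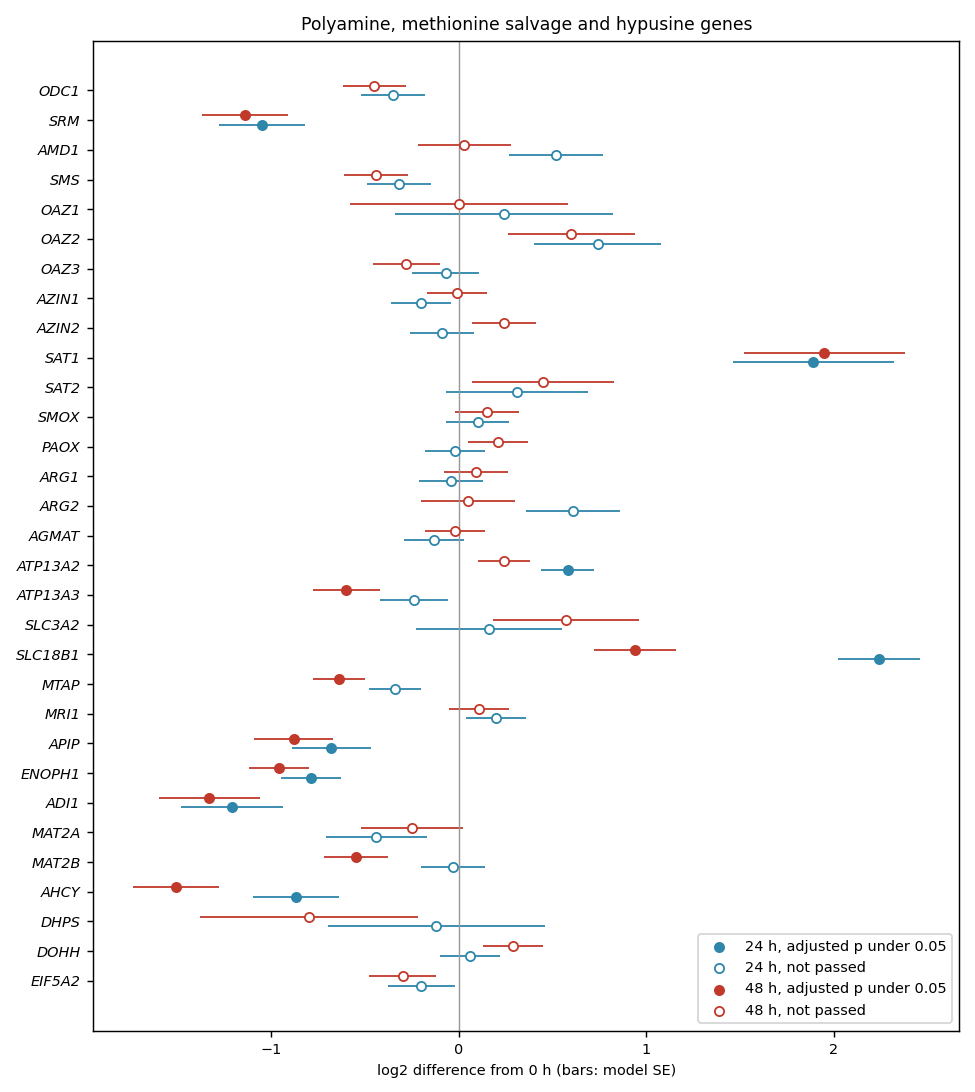
Difference from 0 h (horizontal axis, log2 units) at 24 h and 48 h with bars of 1 model SE for 31 genes of polyamine metabolism, methionine salvage and hypusine formation, n = 3 arrays per time, with filled symbols at a limma adjusted p under 0.05. SLC18B1 and SAT1 stand to the right, and SRM, AHCY and ADI1 to the left.

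Of the 15 measured genes of the SIN3 complex that the MXD factors recruit, 3 passed the F test (20%), near the 16.4% of all genes. RBBP4, a histone-binding subunit, stood at 10.07, 10.23 and 10.01 at 0 h and at 8.15, 8.49 and 8.62 at 48 h, a difference of -1.69 (SE 0.14, limma adjusted p = 2.95e-07). SAP130 was 0.78 higher at 8 h, a call lost without replicate 3 of 0 h or 2 or 3 of 8 h. ING2 fell by 0.64 at 48 h, and that call was lost without replicate 1 or 2 of 0 h or 2 or 3 of 48 h. Of 15 coactivators of MYC, 5 passed, beside 16.4% of all genes. SMARCB1, a chromatin remodelling subunit, was lower at 48 h (-1.57, limma adjusted p = 0.00271), as were WDR5, a histone methyltransferase subunit that binds MYC (-0.70, limma adjusted p = 0.00382), and ACTL6A (-0.82, limma adjusted p = 0.00056). HCFC1, a cofactor that binds MYC, differed from 0 h by -0.88 at 8 h (limma adjusted p = 0.0492) and by -0.26 at 48 h (adjusted p = 0.599). Its 8 h call stood on leaving out replicate 3 of 0 h, 3 of 8 h, 2 of 12 h or 1 or 3 of 48 h, and leaving out any other array ended it (adjusted p = 0.0541 to 0.206). The histone acetyltransferase gene EP300 was called higher at 24 h and 48 h, and was named after its values were seen. Leaving out replicate 2 of 0 h ended both calls (adjusted p = 0.054 and 0.0848). At 48 h 1 of the 15 coactivators was higher and 3 lower, beside 15.0% of all genes called in either direction. Without replicate 3 of 48 h 5 were lower.

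Of 17 measured genes that set the stability of the MYC protein, 8 passed the F test, beside 16.4% of all genes. At 48 h 5 of the 17 were lower than 0 h and 0 higher, beside 15.0% of all genes called in either direction. The largest differences at 48 h were in the kinases AURKA (-2.97, SE 0.21, limma adjusted p = 4.02e-08) and PLK1 (-2.93), the phosphatase inhibitor CIP2A (-2.57) and the ubiquitin ligase subunit SKP2 (-2.28). AURKA, PLK1 and SKP2 are also genes of the cell cycle. FBXW7, the ligase subunit that marks MYC for breakdown, was higher than 0 h at 4 h by 1.09 (SE 0.20, limma adjusted p = 0.01) under every one of the 27 alternatives. It was chosen after its values were seen. Its 8 h call (0.78) was lost without replicate 1 or 2 of 0 h or replicate 1 or 3 of 8 h.

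Of 21 measured textbook targets of MYC, 0 passed at 4 h by limma, when MYC was already low (2 had an unadjusted p under 0.05), and 1.75% of all genes passed there, so nothing is read from this 0. At 24 h and at 48 h 7 were lower and 0 higher, beside 12.5% and 15.0% of all genes called in either direction. Without replicate 1 of 24 h 4 were lower at 24 h, and without replicate 1 of 48 h 4 were lower at 48 h. After median centring of the arrays, which moved the median of all genes by -0.14 at 48 h, 12 were lower there. PAICS, an enzyme of purine synthesis, stood at 9.47, 9.47 and 9.78 at 0 h and at 8.03, 7.91 and 8.22 at 48 h, a difference of -1.52 (SE 0.17, limma adjusted p = 6.85e-06). The mitochondrial peroxidase gene PRDX3 was lower at 48 h by a difference of -1.04 (limma adjusted p = 0.000907). The chaperonin gene HSPE1 differed from 0 h by -1.23 at 12 h (limma adjusted p = 0.00998, and 0.0595 and 0.0615 without replicate 2 of 0 h and 1 of 12 h) and by -0.83 at 48 h (adjusted p = 0.0544). BCAT1, which transfers the amino group of branched-chain amino acids, differed by -0.95 at 12 h (limma adjusted p = 0.00158) and by -0.39 at 48 h (adjusted p = 0.145). The list's median difference was -0.20 at 4 h, -0.39 at 24 h and -0.47 at 48 h, and that of all genes was 0.03, -0.01 and 0.05.

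The genes whose values over the 18 arrays were most like those of MYC by Pearson r were TASL (0.88), MRPL36 (0.87), MKKS (0.85), MRPL58 (0.83) and MRPS21 (0.82). The most opposite were SPTY2D1 (-0.89), ZNF597 (-0.89), HYCC2 (-0.88), POLN (-0.87) and CCDC82 (-0.87). TASL differed from 0 h by -1.78 at 4 h and SPTY2D1 by 1.65. Among the 9 other genes of the set the r with MYC ran from -0.69 for MXD1 and -0.54 for MAX to 0.24 for SRM and ODC1. These genes were picked as the extremes of 18417, and the r is a description.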

How the data were processed

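Messenger RNA of 18 samples was measured on Affymetrix arrays, with biotinylated cDNA made from 200 ng of total RNA per the labels' protocols. The deposited values are log2 intensities, 1 per probe set, used as the authors gave them. Base 2 was inferred because the values run from 1.34 to 12.93, and the software, background correction and any normalization between arrays are not given in the sources used here. Of 33297 probe sets, 19460 name 1 gene, 1754 several and 12083 none, and 19429 matched RefSeq by gene ID. Each of 18417 genes was read from its 1-gene probe set with the highest mean. No 2 arrays were identical. The small number of arrays limits the precision, and no counts stand behind a value.

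Using limma 3.58.1 (R 4.3.3), 1 linear model with harvest time as the sole term covered the 18 arrays (12 residual and 5.58 prior degrees of freedom), with two-sided moderated tests and an F test over times. Benjamini-Hochberg adjustment ran over all genes within each comparison, and an adjusted p under 0.05 was called. Differences carry the model's standard error (SE). MYC less an antagonist carries the SE of the same design fitted to the within-array difference, with no p. The comparisons of 24 h and 48 h with 4 h were added after the levels were seen. Promoters were searched with Python 3.11.15.

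The 10 genes and the other gene lists were chosen with earlier results of these data known. Named from each list were up to 4 genes that passed the F test, taken by the size of their difference from 0 h, and the 5 genes with the highest and the 5 with the lowest r with MYC. Other genes named are marked as chosen after their values were seen, except the uncalled genes listed by role and the genes of the network list. Alternatives were quantile normalization, median centring, array weights, the replicate number as a block, the interquartile range as a covariate (added after the data were seen), a filter that drops the dimmest 25% of genes, all probe sets tested singly, the mean of a gene's probe sets, the 6 arrays of a comparison alone, and leaving out each array.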

Additional observations from a re-analysis of the deposited data

How the results depend on the processing

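Of the 10 genes' differences, no called value changed sign under any of the 27 alternatives: of 2970 values 2939 kept their side of the threshold, 18 lost and 13 gained a call. With array weights 4 of the 10 were called at 8 h against 0 h in place of 2, 2 at 8 h against 4 h in place of 0, and 3 at 24 h against 4 h in place of 1. Over all genes the weights gave 2183, 1039 and 3171 calls in these comparisons, in place of 1230, 41 and 1469. Centring each array on its median gave 5 at 48 h against 0 h in place of 3. Gained were MXD3 and ODC1, both lower, where centring moved the median of all genes by -0.14. Leaving out 1 array gave 0 to 1 at 24 h against 4 h and 1 to 2 at 48 h against 4 h. MYC less MXI1 ran, over the arrays left out, from -2.38 to -1.64 at 4 h, -2.24 to -1.51 at 8 h, -1.98 to -1.25 at 12 h, -1.83 to -1.10 at 24 h and -1.69 to -0.95 at 48 h. Over all genes, the 322 calls at 4 h ranged from 109 without replicate 2 of 4 h to 566 with array weights, the 1230 at 8 h from 575 with only the 6 arrays compared to 2183 with array weights, the 1483 at 12 h from 888 to 2073, and the 3023 of the F test reached 5422 with array weights. Centring moved the median of all genes by -0.09, 0.01, -0.12, -0.09 and -0.14 at 4, 8, 12, 24 and 48 h, and the share of higher calls from 66.5% to 47.1% at 4 h, from 48.6% to 30.6% at 12 h, from 54.0% to 42.9% at 24 h and from 46.1% to 30.5% at 48 h. The cause of these moves was not tested.

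Arrays with the same replicate number had a median correlation of 0.08 in their deviations from the group means (20 of 45 pairs over 0.1), arrays with other numbers one of -0.06 (25 of 90 over 0.1), and 9 of 18 arrays correlated best with their own number. Since not every same-number pair was over 0.1, the numbers were not used to pair the samples in the main model. That rule is strict, so it cannot exclude that the samples were paired. With the replicate number as a block, 2 of the 10 genes in place of 3 were called at 12 h (SRM, adjusted p = 0.0521), the other counts for the 10 genes did not move, and the F test called 3218 genes in place of 3023. Signal near background may make the changes of MXD1, SLC18B1 and ATP13A2 too small.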
